A study of Quercus robur with 6 samples.

Results

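The microRNA (miRNA) miR166 and the transcripts it slices were followed through 6 degradome libraries of root meristematic zones from pedunculate oak (Quercus robur) seedlings. All calls that the deposited tables list under the name qrb-miR166 were taken, which gave 22 of 231 calls, at 6 of 89 sites, on 5 of 85 transcripts. A site was a transcript together with a slice position, the base at which the RNA fragment left by slicing begins. Per the labels, all plants were wild-type and had 8 weeks of acclimatisation under full watering, after which 3 libraries came from plants kept under the control condition and 3 from plants under drought stress, with soil moisture brought down to 25% of the control level for 4 weeks. Taproot and lateral root RNA was combined in each library, so the root types cannot be told apart. The titles do not tell container seedlings, which were grown for 1 year before transplanting, from acorn-sown ones, and the labels call the replicates biological without saying whether they shared plants. The p-values between conditions therefore measure only the spread between these libraries.

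Plant miRNAs guide the protein ARGONAUTE to messenger RNAs that pair with them almost completely, and the target is cut opposite the middle of the miRNA. miR166 is one of the most conserved plant miRNAs. Its classical targets are the class III homeodomain-leucine zipper (HD-ZIP III) transcription factors, which in Arabidopsis set the upper and lower faces of leaves and pattern the vascular tissue. In the Arabidopsis root, miR166 and its close relative miR165 are made outside the stele and move inwards, where they limit HD-ZIP III messenger RNA and so shape the type of xylem cells that form.

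The one name in the tables covered a pair of mature sequences, printed here because they were called at neighbouring slice positions on one transcript. Both are 21 bases long, and capitals mark the seed (bases 2 to 8).
miR166 sequence 1: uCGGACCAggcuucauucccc
miR166 sequence 2: uCUCGGACcaggcuucauucc
Sequence 1 accounted for 18 calls at 4 sites and sequence 2 for 4 calls at 2 sites. The sequences shared a run of 19 bases, which lay at positions 1 to 19 of sequence 1 and at positions 3 to 21 of sequence 2. The seeds therefore differed, although sequence 2 is sequence 1 shifted by 2 bases towards its 5′ side.

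The target sites are shown as they stood in the transcripts, since the best of them differed at so few bases. Positions are numbered along each transcript of the PM1N set, and capitals mark the run of 16 bases that 3 of the sites paired with sequence 1 had in common.
Qrob_T0357230.2, 1684 to 1704, sequence 1: cuggaAUGAAGCCUGGUCCGG
Qrob_T0633190.2, 548 to 568, sequence 1: ccgggAUGAAGCCUGGUCCGG
Qrob_T0602040.2, 1165 to 1185, sequence 1: cugggAUGAAGCCUGGUCCGG
Qrob_T0357230.2, 1686 to 1705, sequence 2: ggaAUGAAGCCUGGUCCGGa
Qrob_T0619560.2, 2971 to 2991, sequence 2: ggagugaaggucuggcugaga
Qrob_T0007340.2, 476 to 500, sequence 1: ggggagguugugaagugugguuugg
The names used below are those of the study, which calls Qrob_T0357230.2 ATHB-15 and gives the name REVOLUTA to Qrob_T0602040.2. Both are HD-ZIP III genes. In Arabidopsis ATHB-15, also called CORONA, acts in vascular and meristem development, and REVOLUTA in meristem formation, leaf polarity and vascular patterning. The other transcripts had no name in the sources used here and are given by their identifiers. None of the 83 sites of other miRNAs contained the shared run. Those sites were listed for pairing with other sequences, so this absence says nothing on specificity. No other miRNA was called on any of the 5 transcripts.

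The 3 sites with the shared run differed only towards the 5′ end of the target, opposite the 3′ end of the miRNA. Counted from the first base of the 21-base site, ATHB-15 differed from REVOLUTA by A5G, which lies opposite the U at base 17 of sequence 1 and turns an A-U pair into a G-U pair. Qrob_T0633190.2 differed from REVOLUTA by C2U, opposite base 20 of the miRNA, where neither site was paired. Each of the 3 sites had 18 paired bases, and base pairs at the sliced position were the same in all of them.

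The deposited Allen score, a penalty for mismatches with 0 for a perfect match, was 3 for ATHB-15 and 3.5 for both REVOLUTA and Qrob_T0633190.2. The deposited MFE ratio, which divides the minimum free energy of the duplex by that of a perfectly paired one, was 0.859 for ATHB-15, 0.855 for Qrob_T0633190.2 and 0.848 for REVOLUTA. These placed the sites 37th to 39th of 89 in order of falling MFE ratio. Sequence 2 scored better on ATHB-15 than sequence 1 did, with 20 paired bases, an MFE ratio of 0.914 and an Allen score of 2. Its base 3, which lies in the seed, was left unpaired, however. Sequence 1 paired there without a gap from base 2 to base 19.

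The last pair of sites aligned poorly. For Qrob_T0619560.2 the Allen score was 5.5 and the MFE ratio 0.717, with 3 G-U pairs, and for Qrob_T0007340.2 the Allen score was 10.5, with 4 G-U pairs. The MFE ratio of Qrob_T0007340.2, 0.653, was the lowest of the 89 sites. Of all sites, 57.3% had an Allen score of at most 4, as had 4 of the 6 miR166 sites. The median Allen score was 3.5 over the 6 miR166 sites and 4 over the 89 sites of all miRNAs.

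**Figure D1:**
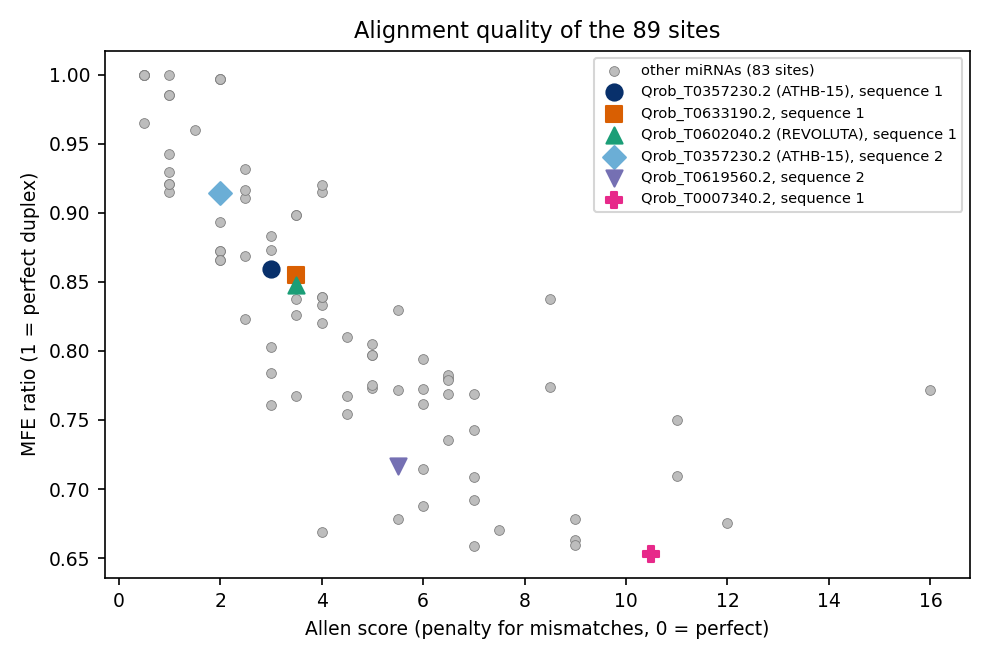
Deposited MFE ratio against deposited Allen score, with 1 point for each of the 89 sites, the 6 miR166 sites in colour and the 83 sites of other miRNAs in grey. The 3 sites with the shared run sit close together at Allen scores of 3 and 3.5, and Qrob_T0007340.2 has the lowest MFE ratio, 0.653.

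Each deposited call carries a category, the class of evidence for slicing. In category 0 the slice position holds more reads than any other position of its transcript, and in category 1 it shares that maximum with another position. Category 2 lies below the maximum but above the transcript's usual level, category 3 at or below that level, and category 4 is a single read. Of the 22 miR166 calls, 15 were in category 0, 2 in category 1, 3 in category 2, 0 in category 3 and 2 in category 4. Categories 0 and 1 together held 77.3% of the miR166 calls, beside 59.3% of the 231 calls of all miRNAs.

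The site on ATHB-15 paired with sequence 1, with slice position 1695, was the most constant. It was in category 0 in all 6 libraries. Its deposited p-value, the chance that a position of that category falls on the slice position of an alignment ranked as high, was 0.000330, 0.000346 and 0.000330 for control (replicates 1, 2 and 3) and 0.000305, 0.000334 and 0.000355 for drought. The control values lay inside the range of the drought values. In each of the 6 libraries this was the lowest p of any listed call, a value it shared there with 1 to 4 calls of other miRNAs. Over all miRNAs 8.99% of the sites were in category 0 in every library, as was 1 of the 6 miR166 sites, this one.

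Because this alignment was the best that sequence 1 had in the transcript set, its p equals the share of all positions that fall in category 0, the category density of the library. Written as percentages of positions, the p-values of slice position 1695 are thus the densities themselves, 0.0330%, 0.0346% and 0.0330% in control and 0.0305%, 0.0334% and 0.0355% under drought, and they carry no further information on this site. On the log10 scale the p of slice position 1695 had a mean of −3.47 ± 0.012 for control and −3.48 ± 0.033 for drought (SD, n = 3 each). The exact permutation p was 0.9 for this difference, which is one of densities, and 0.9 after adjustment over the 16 miRNA-site pairs called in all libraries.

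Slice position 559 of Qrob_T0633190.2 was likewise called in all 6 libraries, but not with the same evidence. It was in category 2 in control replicates 1 and 2 and in category 0 in control replicate 3 and in every drought library. The deposited p was 0.0271, 0.0285 and 0.000660 in the control libraries and 0.000611, 0.000668 and 0.000710 in the drought libraries. A pair of control libraries thus stood apart from the other 4, and the groups overlapped because control replicate 3 fell among the drought values. The mean category was 1.33 ± 1.15 for control (SD, n = 3) and 0 for drought, with an exact permutation p of 0.4 and an adjusted p of 1. The log10 of p differed by −1.08, drought minus control (exact permutation test, two-sided, p = 0.3, and 0.8 after adjustment), a difference that did not exceed what other assignments of the libraries gave. This alignment ranked 2 for sequence 1 in every library, so each p followed from the category and its density. The log10 p is therefore not a measure separate from the category. Among the 16 pairs called in every library, 6.25% had log10 p values that did not overlap between conditions, and 6.25% had such categories, and neither miR166 pair was among them.

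These were the only miR166 sites called in all 6 libraries, 2 of 6, beside 18.0% of the sites of all miRNAs. They supplied 12 of the 22 calls. Averaged over both, the category was 1, 1 and 0 in the control libraries and 0 in each drought library. The difference of −0.667 did not stand out (two-sided exact permutation test, p = 0.4), and the smallest p that 3 against 3 libraries allow is 0.1.

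**Figure D2:**
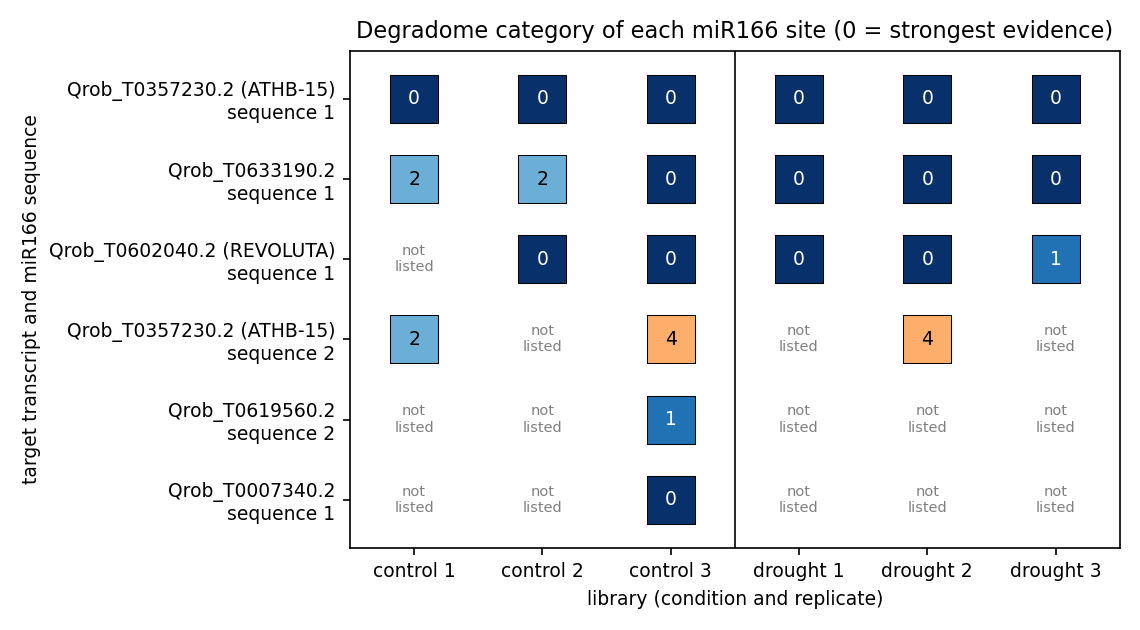
Degradome category of each miR166 site (rows, with the miR166 sequence that paired with it) in each library (columns, control on the left and drought on the right of the line). ATHB-15 with sequence 1 is in category 0 in all 6 libraries, Qrob_T0633190.2 is in category 2 in control replicates 1 and 2 alone, and REVOLUTA is missing from control replicate 1 alone.

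Slice position 1176 of REVOLUTA was called in 5 libraries. It was in category 0 in control replicates 2 and 3, with p of 0.00104 and 0.000989, and in drought replicates 1 and 2, with p of 0.000916 and 0.001002. In drought replicate 3 it was in category 1, with p of 0.00140. No call was listed for control replicate 1. Over all miRNAs 22.5% of the sites were called in at least 5 libraries, as were 3 of the 6 miR166 sites. In category 0 or 1 in at least 5 libraries were 11.2% of all sites and 2 of the 6 miR166 sites, those of ATHB-15 at 1695 and of REVOLUTA.

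The p-values allow a limit on what was missed there. The ratio of a p to the category density gives the rank of an alignment among those of its miRNA sequence, and the ranks of the 3 sites were 1 for ATHB-15, 2 for Qrob_T0633190.2 and 3 for REVOLUTA in every library that listed them. At rank 3 in control replicate 1, a call in category 0, 1 or 2 would have had a p of at most 0.000991, 0.00149 or 0.0403 and would have been listed. In category 3 or 4 its p would have been up to 0.0802 or 0.0710, beyond the limit of 0.05. The category 3 density of that library rests on 1 call. At that rank the REVOLUTA site was therefore in none of categories 0 to 2 in that library, and whether it held any read cannot be read from the table. It was called in 2 of 3 control and 3 of 3 drought libraries. A site missing from 1 library gives a Fisher's exact p of 1 wherever the gap falls, so its presence could not be tested.

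Taken over the 3 sites with the shared run, 1, 2 and 3 of them were in category 0 or 1 in control replicates 1, 2 and 3, against all 3 in each drought library. Control replicate 3 equalled the drought libraries, so the groups overlapped, and the difference of 1 site lay within what other assignments gave (two-sided exact permutation test, p = 0.4).

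**Figure D3:**
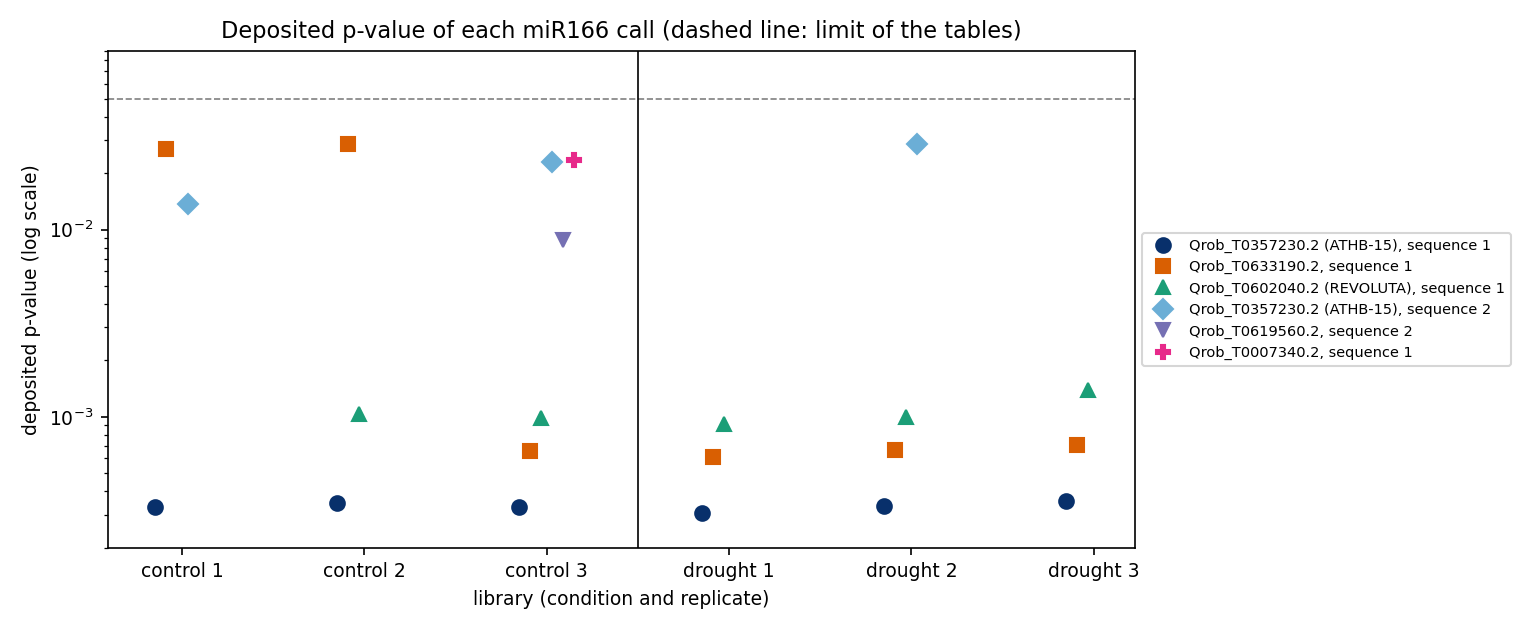
Deposited p-value of each miR166 call on a log axis against library, with 1 symbol for each site and the dashed line at the limit of 0.05. ATHB-15 with sequence 1 stays between 0.000305 and 0.000355, whereas Qrob_T0633190.2 is at 0.0271 and 0.0285 in control replicates 1 and 2 and at 0.000710 or below in the other 4 libraries.

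On ATHB-15 a second slice position, 1697, was called with sequence 2, 2 bases downstream of the first. A slice position is set as the base opposite base 10 of the aligned sequence, so the spacing of 2 bases follows from the alignments. It is not separate evidence that each sequence guides its own cut. Slice position 1695 lies opposite base 12 of sequence 2, and slice position 1697 opposite base 8 of sequence 1. The second position was listed in category 2 with a deposited p of 0.0136 for control replicate 1. It was in category 4 in control replicate 3, at 0.0229, and in drought replicate 2, at 0.0287. It was thus found in 2 of 3 control and 1 of 3 drought libraries (two-sided Fisher's exact test p = 1, adjusted p = 1 over the 89 sites).

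The alignment with the better scores had the weaker evidence on this transcript. Since slice position 1695 held the single maximum in every library, position 1697 could reach category 2 at best, and in both libraries with category 4 it held 1 read. It was the highest ranked alignment of sequence 2 in all 3 libraries that listed it. At that rank a call in categories 2, 3 or 4 would have had a p of at most 0.0143, 0.00676 or 0.0224 in control replicate 2 and of at most 0.0192, 0.00992 or 0.0327 in drought replicate 3, and none was listed. In drought replicate 1 categories 2 and 3 would also have passed, with p of at most 0.0126 and 0.0339, while no category 4 call of any miRNA was there to give a density. Sequence 2 was not called at REVOLUTA or Qrob_T0633190.2 in any library.

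**Figure D4:**
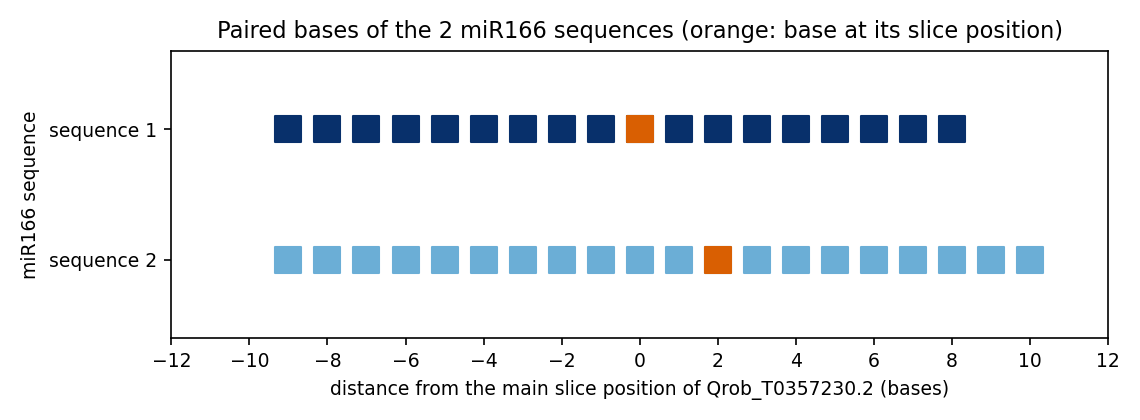
Bases of Qrob_T0357230.2 (ATHB-15) that paired with each miR166 sequence, by their distance in bases from slice position 1695, with the base at the slice position of each sequence in orange. Both duplexes begin at the same base on the left, and the slice position of sequence 2 lies 2 bases to the right of that of sequence 1.

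The remaining sites were each called in control replicate 3 alone. Slice position 2983 of Qrob_T0619560.2 with sequence 2 was in category 1 with a deposited p of 0.00882, and slice position 491 of Qrob_T0007340.2 with sequence 1 was in category 0 with one of 0.0235. Both had high categories but low ranks, 18 and 72 among the alignments of their sequences. These were 2 of 6 miR166 sites called in a single library, beside 47.2% of the sites of all miRNAs. With a call in 1 library, no test between conditions can be informative for them.

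The number of miR166 calls was 3, 3 and 6 for control (replicates 1, 2 and 3) and 3, 4 and 3 for drought. Control replicate 3 had the most, because of the sites on Qrob_T0619560.2 and Qrob_T0007340.2 and because all the other sites were listed in it. The mean was 4.00 ± 1.73 for control and 3.33 ± 0.577 for drought (SD, n = 3 each), and the difference of −0.667 was within the replicate error (p = 1, exact permutation test, two-sided). Without control replicate 3 it was 0.333, in the opposite direction. Calls in category 0 or 1 numbered 1, 2 and 5 in control and 3 in each drought library (two-sided exact permutation test, p = 1). No miR166 site separated the conditions, with a call in every library of one and no call in the other, as 4.49% of the 89 sites did, and 0.00% of the 89 sites had an adjusted Fisher p under 0.05.

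A further 3 miRNAs with more than 1 site called in every library were set beside miR166. miR160, which targets auxin response factors, had 4 calls in each library. miR396, which targets growth-regulating factors, had 5, 4 and 5 calls in control and 4 in each drought library, and miR167, which also targets auxin response factors, had 2 in each control library and 3, 4 and 4 under drought. In category 0 or 1 miR160 had 3 calls in each control library and 2, 4 and 4 under drought, miR396 had 4, 3 and 4 and then 4 in each drought library, and miR167 had 1 in each control library and 1, 2 and 2 under drought. The calls of miR166 in category 0 or 1 had a wider range over the control libraries, 1 to 5, than those of miR160, miR396 and miR167, and this difference was not tested. The 5 calls include the poorly aligned sites on Qrob_T0619560.2 and Qrob_T0007340.2. Over the 3 sites with the shared run the range was 1 to 3. miR166 also had more sites, 6 against 4, 5 and 4, and the other miRNAs were chosen for sites called in every library.

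**Figure D5:**
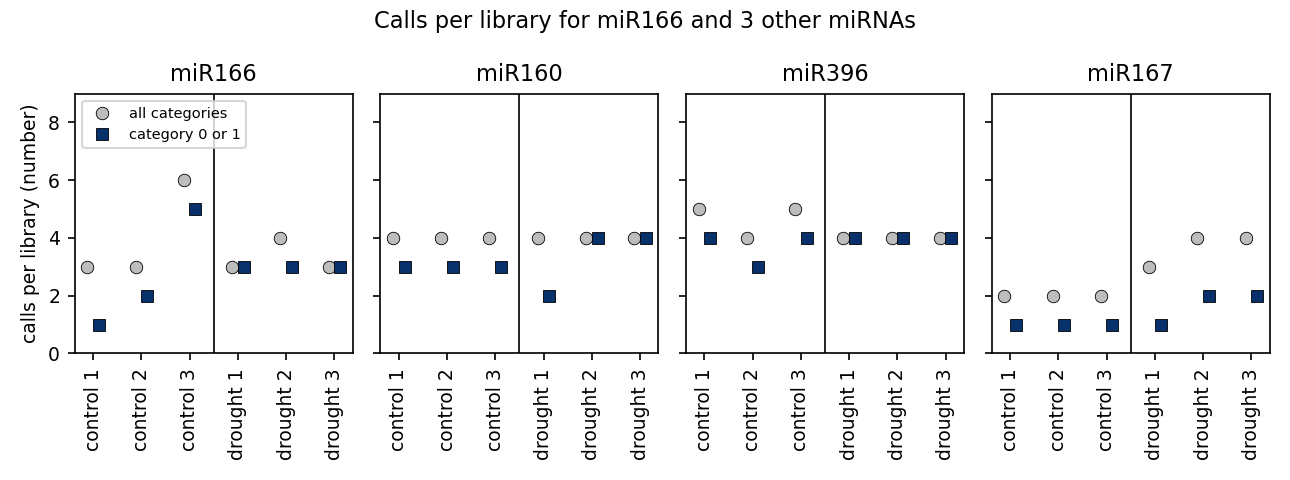
Calls per library for miR166, miR160, miR396 and miR167, with grey circles for all categories and dark squares for category 0 or 1, control libraries left of the line. For miR166 the dark squares run from 1 to 5 in control and are at 3 in each drought library.

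The pattern of libraries in which each miR166 site was called was compared with that of the 83 other sites, as the number of the 6 libraries with the same state (called or not called). The REVOLUTA site matched 1 other site in all 6 libraries, slice position 242 of Qrob_T0323760.2, which the tables pair with a miRNA that the study named by its sequence. Both were missing from control replicate 1 alone, and their categories differed in 1 library by 1 step. No other site had the pattern of slice position 1697. The sites called in control replicate 3 alone shared that state with 5 other sites. Nearest in category to Qrob_T0007340.2 were slice positions 111 of Qrob_T0023070.2 and 938 of Qrob_T0477920.2, and nearest to Qrob_T0619560.2 were 704 of Qrob_T0051100.2 and 665 of Qrob_T0133800.2, all of them likewise paired with miRNAs named by sequence. The site at 1695 of ATHB-15 shared its state with 14 sites of other miRNAs, of which 7 were also in category 0 throughout.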

How the data were processed

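Degradome libraries of oak root RNA (3 control, 3 drought) were analysed, grouped by the sample titles. The authors, per the file headers, used CleaveLand4 (version 4.5) library by library, with the longest transcripts of the PM1N set, one miRNA alignment file, a p-value limit of 0.05 and categories up to 4. The deposited p-value carries no correction for the many miRNAs searched. The deposited category and Allen score are whole or half-step scores, the deposited MFE ratio is relative to a perfect duplex, and other deposited columns give free energies and transcript positions. No read counts are in the tables, so depth is unknown and no counting error can be given.

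Calls named qrb-miR166 were taken from all tables. In each library and category the density was the largest step of which all −ln(1 − p) were whole multiples (tolerance 0.001), and ranks were read from it. With few calls the step can be a multiple of the density, so p-values derived from it are upper limits. The procedure was tested on simulated data in which the top ranked alignment was always present and all ranks were close to the top. The case of a step that is a multiple of the density was therefore not tested. Values per library were compared by two-sided exact permutation tests over 20 assignments, and calls by Fisher's exact test, with Benjamini-Hochberg adjustment over 16 shared pairs or 89 sites. All miR166 sites are named. Sites of other miRNAs are named only where they were called in the same libraries, at most 3 by nearest category. The members, lists and tests were chosen with earlier results of these data known. Alternatives were a p-value limit of 0.01, fewer categories, an Allen score of at most 4, transcripts in place of sites, other scales, a replicate block and leaving out each library. RefSeq gene tables held no PM1N identifiers and gave no names. The tools were scipy 1.17.1, pandas 2.3.3, numpy 2.4.6 and matplotlib 3.10.9 under Python 3.11.15.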

Additional observations from a re-analysis of the deposited data

How the results depend on the processing

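No comparison passed 0.05 in any setting, which 3 against 3 libraries cannot reach, so only directions are described. Over 12 results, 32 of 40 alternatives that kept all libraries left the direction as it was. That count includes the 6 replicate block fits, which cannot change a difference, and differences of 0 that stayed at 0. It also includes a density taken from miR166 sites alone, which returned the same value. The count therefore overstates how far the directions held. The difference in miR166 calls became 0.667 with a p-value limit of 0.01 and 0 when Allen scores above 4 were left out. The limit of 0.01 also brought the difference in mean category to 0 and the difference in presence to 0 for slice positions 1697 and 491, whose calls all had a p above it. For slice position 559 of Qrob_T0633190.2 it moved the difference in presence from 0 to 66.7 percentage points (two-sided Fisher's exact test, p = 0.4), as both category 2 calls of this site were lost. Counting transcripts in place of sites brought the difference in presence of 1697 to 0, because 1695 was called on the same transcript in all 6 libraries. One common category 0 density brought the difference in log10 p at 1695 to 0 by construction.

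Without one library in turn the differences ran from −1.17 to 0.333 for calls, from −0.5 (control replicate 1 left out) to 1.50 (control replicate 3 left out) for calls in category 0 or 1, and from −1 to −0.5 for the mean category. For the log10 p they ran from −0.021 to 0.011 at 1695 and from −1.62 to −0.805 at 559, and for the log2 density, which rests on the same values as 1695, from −0.071 to 0.038. Differences in presence ran from −66.7 to −16.7 percentage points for 1697, from 0 to 50.0 for REVOLUTA, and from −50.0 to 0 for each of the sites on Qrob_T0619560.2 and Qrob_T0007340.2, and stayed at 0 for 1695 and 559. What caused these changes was not tested. Whether the replicate numbers shared by the titles pair the libraries is not stated in the labels. Over the 16 shared pairs, deviations from the group means correlated at 0.074, 0.25 and −0.057 for replicates 1, 2 and 3 (log10 p). These correlations gave no clear sign of pairing, but so few pairs cannot settle whether libraries shared plants. With a replicate block the differences were as before by construction, −0.667 for miR166 calls, 0.333 for calls in category 0 or 1 and −0.667 for the mean category. The block was tested by exact sign flips of the differences within replicate number. No p of these sign-flip tests was below 0.5, and the smallest they allow is 0.25.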
